A study of Mus musculus with 9 samples.

Results

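The apolipoproteins are the protein coats of lipoproteins, the particles in which cholesterol and triglyceride travel between cells. They were examined here together with Mttp, a gene of lipoprotein assembly that encodes no apolipoprotein. The 10 genes, taken by gene symbol from the 22564 genes in the deposited table, were Apoa1, Apoa2, Apoa4, Apob, Apoc1, Apoc3, Apoe, Apoh, Apom and Mttp. The 8 genes other than Apob and Apoa4 were taken for their function, with earlier results of these data known. Apob and Apoa4 were chosen by their measured values, which were lower in both ionomycin groups than in the control. The differences of Apob and Apoa4 from the control are therefore described and not tested.

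The RNA of C57BL/6 mouse blastocysts, collected 3.5 days after fertilization, was sequenced in 9 libraries, each made from 5 pooled blastocysts and 3 for each group. In the ICSI group, the control, a normal sperm was injected into the oocyte and no ionomycin was given. In the ICSI-AOA group the oocytes were injected in the same way and then activated artificially (AOA) with 2.5 µM ionomycin, a calcium ionophore, for 10 min at 30 min after injection. In the dICSI-AOA group the sperm heads had first been kept at 37 °C for 4 h to lower their ability to activate the oocyte, and the oocytes then received the same ionomycin treatment. Low-activity sperm without ionomycin was not analysed here, so no library separates the sperm from the ionomycin in the dICSI-AOA group. Each library is a pool, which leaves differences between single embryos unmeasured. In pools, fewer cells of a type and less RNA per cell cannot be told apart.

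Lipoprotein particles that carry triglyceride are built on apolipoprotein B, a very large protein that takes up lipid while it is being made in the endoplasmic reticulum. The microsomal triglyceride transfer protein, encoded by Mttp, brings that lipid to it, with protein disulfide isomerase (P4hb) as its partner subunit. The smaller apolipoproteins exchange between finished particles and serve as ligands, enzyme cofactors or cholesterol acceptors. The adult liver and intestine are the main sources, and in the mouse embryo the visceral endoderm of the yolk sac makes such particles after implantation. Mouse embryos that lack Apob or Mttp die in midgestation.

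The libraries were shallow, with 128176 to 172307 fragments assigned to genes and 1788 to 2033 genes per library with 10 fragments or more. A fragment is a sequenced piece of RNA. The markers expected of a blastocyst were weak, since 6 of 7 epiblast markers, Pou5f1, Nanog and Sox2 among them, and 5 of 10 trophectoderm markers were at 0 in all 9 libraries. Actb had 68 fragments and Gapdh 18 over all libraries. Whether the counting took the strand of the transcript or the opposite strand was not tested, so a value given for a gene is a value at its locus. Exon overlaps with genes on the other strand are given for the 10 genes and for the genes whose fold changes or correlations are printed. The liver markers Alb, Ahsg, Fga, Fgb and Fgg were at 0 in every library, with 8 of 10 hepatocyte markers at 0 and a summed level of at most 23.4 CPM (fragments of the gene per 1000000 fragments of the library). Of 18 markers of primitive and visceral endoderm, 5 were at 0, among them Sox17, Sox7 and Dab2. Their summed level was 56.4 to 117 CPM in ICSI, 46.1 to 90.6 in ICSI-AOA and 65.9 to 83.1 in dICSI-AOA.

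The 10 genes held 1118 fragments in all. Apoa4 alone held 612 of them (54.7%), Apoa1 200 (17.9%), Apob 138 (12.3%), Apom 94 (8.41%) and Mttp 50 (4.47%). The remaining 5 genes shared few: Apoe had 14 fragments, Apoc3 5, Apoh 3 and Apoa2 2, and Apoc1 had 0. By length-corrected level (FPKM, the authors' fragments per kilobase of transcript and 1000000 fragments), Apoa4 stood at rank 365 among the 4304 genes whose mean FPKM reached 1 or more, with a mean of 32.7. Apoa1 followed at rank 552 (21.4) and Apom at rank 1083 (9.96), while Apob lay at rank 3638 (1.44) and Mttp at rank 4061 (1.14). Apoa4 and Apoa1 did not differ beyond their spread in the dICSI-AOA libraries, where their FPKM was 22.95 ± 5.52 and 20.02 ± 5.15 (SD, n = 3).

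**Figure D1:**
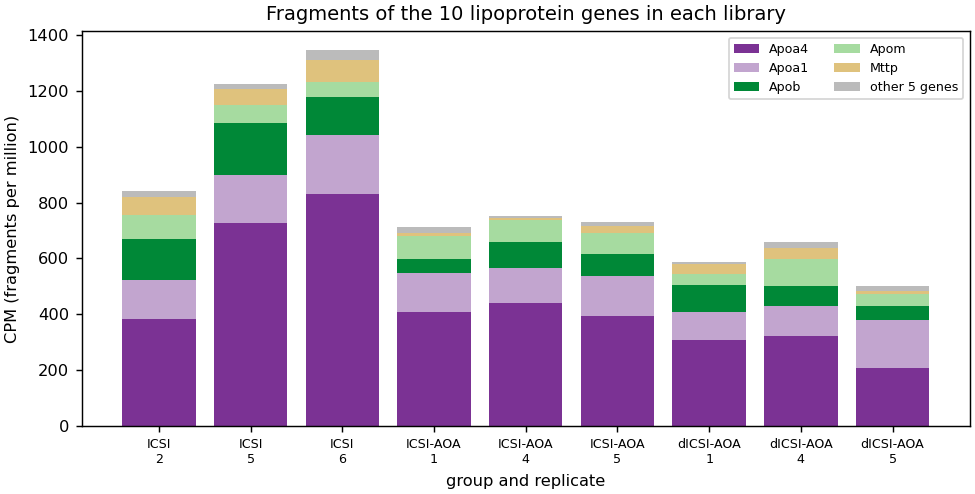
Stacked bars give the CPM of Apoa4, Apoa1, Apob, Apom, Mttp and the other 5 genes together in each of the 9 libraries, named below by group and replicate. Apoa4 makes the tallest block in every library, and the bars of ICSI reach 843 to 1348 CPM against 502 to 751 in the libraries given ionomycin.

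Together the 10 genes took 0.0843%, 0.122% and 0.135% of the fragments in ICSI replicates 2, 5 and 6. The share was 0.0712%, 0.0751% and 0.0731% in ICSI-AOA replicates 1, 4 and 5, and 0.0588%, 0.0659% and 0.0502% in dICSI-AOA replicates 1, 4 and 5. No library given ionomycin reached the lowest ICSI library, but this sum contains Apoa4 and Apob, which were chosen for that direction. Without them, the other 8 genes summed to 312, 313 and 381 CPM in ICSI, to 250, 219 and 259 in ICSI-AOA and to 185, 263 and 245 in dICSI-AOA. This remainder was mostly Apoa1, Apom and Mttp, and every library given ionomycin lay below the 3 ICSI libraries, while ICSI-AOA and dICSI-AOA overlapped. Of these 3 genes only Mttp showed that order on its own, as 1.58% of the 4304 genes did. No such share was computed for sums of 8 genes, so nothing is read from the order of this sum.

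The promoters of Apoa4, Apoa1, Apob and Mttp are shown because these genes carried most of the fragments or of the differences between groups. RefSeq (GRCm38.p6) gave promoters for 8 of the 10 genes, and each line holds the 250 bases before the RefSeq start of the gene, on its strand. The GENCODE vM21 starts of these genes, used for the gene coordinates given later, differ from the RefSeq starts, so that the Mttp window lies inside the GENCODE gene and the other windows run past the GENCODE start. The distances below count from the RefSeq start. Capitals mark matches on either strand to CAAAG, the core of sites bound by HNF4 factors, or to TATAAA, the TATA box. The windows are chr9:46240594-46240843 (+) for Apoa4, chr9:46228380-46228629 (+) for Apoa1, chr12:7977427-7977676 (+) for Apob and chr3:138143419-138143668 (-) for Mttp.
Apoa4: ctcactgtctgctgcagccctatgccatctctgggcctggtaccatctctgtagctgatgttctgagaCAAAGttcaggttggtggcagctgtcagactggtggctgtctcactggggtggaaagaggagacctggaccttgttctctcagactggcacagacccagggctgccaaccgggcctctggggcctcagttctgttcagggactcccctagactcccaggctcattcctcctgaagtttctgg
Apoa1: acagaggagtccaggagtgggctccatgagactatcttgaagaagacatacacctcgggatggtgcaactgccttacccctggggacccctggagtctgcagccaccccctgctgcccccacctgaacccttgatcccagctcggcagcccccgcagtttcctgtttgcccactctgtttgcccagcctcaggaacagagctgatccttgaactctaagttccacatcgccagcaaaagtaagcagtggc
Apob: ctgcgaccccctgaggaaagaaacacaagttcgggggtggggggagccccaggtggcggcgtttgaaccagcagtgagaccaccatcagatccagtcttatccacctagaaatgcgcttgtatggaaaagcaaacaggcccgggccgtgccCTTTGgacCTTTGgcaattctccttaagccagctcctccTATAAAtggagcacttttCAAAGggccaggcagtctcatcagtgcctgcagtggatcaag
Mttp: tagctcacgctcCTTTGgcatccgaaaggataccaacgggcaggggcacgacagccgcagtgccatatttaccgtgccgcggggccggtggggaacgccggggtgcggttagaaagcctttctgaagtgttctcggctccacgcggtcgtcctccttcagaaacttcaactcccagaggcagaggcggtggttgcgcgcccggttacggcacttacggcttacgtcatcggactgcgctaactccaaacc

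Apob held 3 matches to CAAAG, which begin 99, 91 and 42 bases before the start, and a TATA box at 60. Apoa4 held 1 match to CAAAG at 182 bases and Mttp 1 at 238, while the window of Apoa1 held none. The core is common, with a match in 48.6% of the 32851 promoters of this length, and the TATA box in 12.4%. The 4 windows held no AGGTCA, a motif of nuclear receptors (14.02% of all promoters), no CCAAT (33.8%) and no AGATAA, a motif of GATA factors (9.99%). Matches overlapped no other match.

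**Figure D2:**
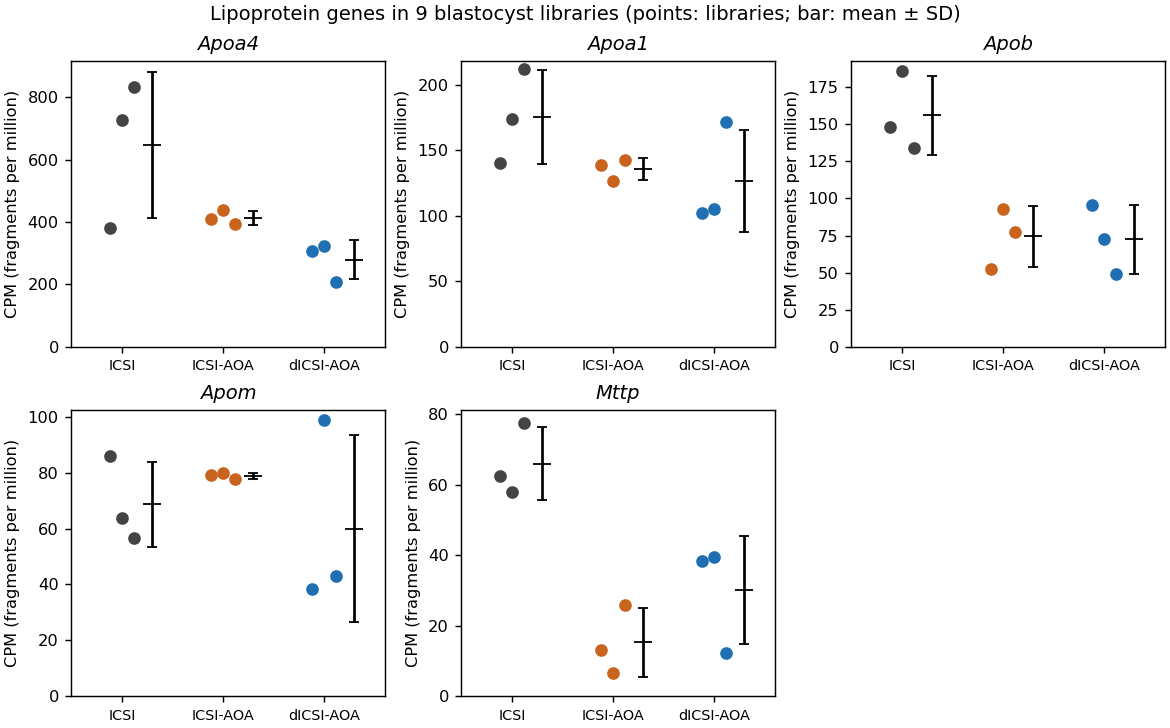
Points give the CPM (vertical axis) of Apoa4, Apoa1, Apob, Apom and Mttp in the single libraries of the 3 groups, and the bar beside each group gives its mean ± SD (n = 3). For Apob and Mttp every ICSI point lies above every point of the libraries given ionomycin, for Apoa4 the lowest ICSI point (382) lies below the ICSI-AOA points, and for Apoa1 and Apom the groups overlap.

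Apoa4 encodes a lipid-binding apolipoprotein that the intestine secretes with chylomicrons. It lies on chromosome 9 (mm10, plus strand, 46240696 to 46243459 in GENCODE vM21), in the cluster that also holds Apoa1 and Apoc3. Its fragments numbered 49, 125 and 118 in ICSI, 62, 66 and 61 in ICSI-AOA, with 48, 49 and 34 in dICSI-AOA. Scaled to the size of each library these were 382, 725 and 833 CPM in ICSI, 409, 439 and 395 in ICSI-AOA, with 307, 323 and 208 in dICSI-AOA. ICSI replicate 2 thus lay below all 3 ICSI-AOA libraries, and the other ICSI libraries lay above every library given ionomycin. The spread within ICSI (647 ± 235) was about the size of its distance from the ICSI-AOA mean (414 ± 22.6), while dICSI-AOA (279 ± 62.0, SD, n = 3) did not reach any ICSI library. By edgeR, a test for counts fitted here to all libraries, the log2 fold change against ICSI was −0.71 (standard error, SE, 0.25) for ICSI-AOA. For dICSI-AOA it was −1.27 (SE 0.26), and both values are descriptions. In FPKM the ICSI libraries stood at 20.5, 55.1 and 55.4, those of ICSI-AOA at 37.5, 27.6 and 29.4, and those of dICSI-AOA at 26.4, 25.9 and 16.6, so in this unit replicate 2 of ICSI lay below every ICSI-AOA library and inside the range of dICSI-AOA.

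The comparison between the groups given ionomycin was not used to choose Apoa4, although the same libraries were. Every dICSI-AOA library was below every ICSI-AOA library, in CPM and in FPKM, and the log2 fold change was −0.56 (SE 0.26, adjusted p = 0.728 by edgeR with Benjamini-Hochberg adjustment over 4304 genes). Apoa4 passed the thresholds used for calls, a fold over 1.3 and an unadjusted p under 0.05, and was the 1 gene of 8 tested that did. Of all genes tested, 2.97% were called lower in this comparison, and in 6.69% the libraries of dICSI-AOA lay wholly below those of ICSI-AOA. The call did not hold without dICSI-AOA replicate 5 (−0.39), nor without any one of the 3 ICSI-AOA libraries (−0.53 to −0.58). The exons of Apoa4 overlap Gm10680 by 632 bp and Gm47528 by 634 bp, both on the other strand and neither listed on its own in the table.

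Apoa1, the main protein of high-density lipoprotein and an acceptor of cellular cholesterol, lies in the same cluster on the plus strand of chromosome 9 (46228580 to 46230466). It had 18, 30 and 30 fragments in ICSI, 21, 19 and 22 in ICSI-AOA, with 16, 16 and 28 in dICSI-AOA. The levels in CPM were 175 ± 35.6 for ICSI, 136 ± 8.32 for ICSI-AOA and 126 ± 39.1 for dICSI-AOA (SD, n = 3). The groups overlapped, because ICSI replicate 2 (140) lay below ICSI-AOA replicate 5 (142) and because dICSI-AOA replicate 5 (172) lay inside the range of ICSI. The log2 fold change against ICSI was −0.43 for ICSI-AOA (SE 0.31, adjusted p = 0.819 by edgeR) and −0.52 for dICSI-AOA (SE 0.31, adjusted p = 0.791), and neither met the thresholds. Between the ionomycin groups it was −0.09 (SE 0.32). Without dICSI-AOA replicate 5 the value in dICSI-AOA became −0.81 (adjusted p = 0.855 by edgeR) and met the thresholds. No exon of another gene overlaps Apoa1.

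Their neighbours on chromosome 9 had few fragments apart from Sik3, a salt-inducible kinase. Sik3 had 8, 18 and 23 fragments in ICSI, 15, 12 and 7 in ICSI-AOA, with 9, 9 and 20 in dICSI-AOA. Apoc3, whose protein restrains lipoprotein lipase, had 5 in all and never more than 1 in a library. Apoa5, another modulator of that lipase, had 5, of which ICSI-AOA replicate 5 held 3. At these counts no difference of Apoc3 or Apoa5 between groups could be seen.

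Apob encodes the core protein of very low density lipoproteins and chylomicrons, on chromosome 12 (plus strand, 7977648 to 8016835). The libraries held 19, 32 and 19 fragments in ICSI, 8, 14 and 12 in ICSI-AOA, with 15, 11 and 8 in dICSI-AOA. In CPM these were 148, 186 and 134 in ICSI, 52.7, 93.1 and 77.6 in ICSI-AOA, with 95.9, 72.4 and 49.0 in dICSI-AOA. The 6 libraries given ionomycin lay below the 3 ICSI libraries, as the choice of the gene required of its group values. The log2 fold change against ICSI was −1.13 for ICSI-AOA (SE 0.37) and −1.16 for dICSI-AOA (SE 0.37), as a description. Between the ionomycin groups it was −0.04 (SE 0.40, adjusted p = 0.995 by edgeR), an estimate whose error leaves room for a difference of either sign. No exon of another gene overlaps Apob.

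In the authors' FPKM, Apob looked different. ICSI had 1.73, 1.69 and 1.57, ICSI-AOA had 1.505, 1.09 and 2.46, and dICSI-AOA had 1.03, 1.10 and 0.794. The ICSI-AOA mean of 1.68 ± 0.71 was level with the ICSI mean of 1.66 ± 0.083, and only dICSI-AOA (0.973 ± 0.16, SD, n = 3) stayed below every ICSI library. On log2(FPKM + 1), limma gave −0.02 for ICSI-AOA and −0.44 for dICSI-AOA. The highest FPKM, 2.46 in ICSI-AOA replicate 5, came from 12 fragments, whereas ICSI replicate 5 had 32 fragments and an FPKM of 1.69. FPKM divides by transcript length, and the FPKM given for 1 estimated count of Apob varied 3.57-fold between libraries. For Apoa4, with a single annotated transcript of 1815 bases, it varied 1.02-fold, for Apom 1.05-fold and for Mttp 1.09-fold. Apob has 4 annotated transcripts of 1118 to 13934 bases. Which transcripts the fragments of each library were assigned to was not tested.

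**Figure D3:**
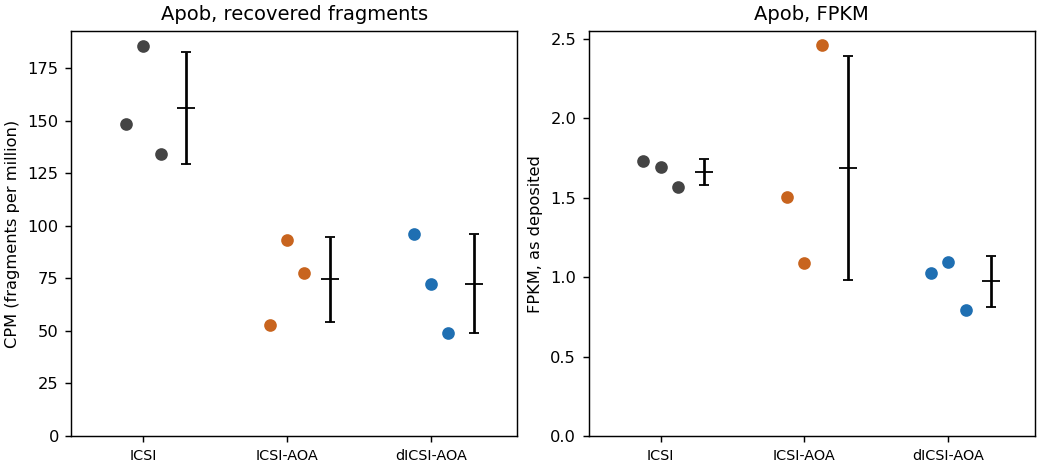
Apob in the 9 libraries is given as CPM (left) and as the deposited FPKM (right), with points for libraries and the mean ± SD (n = 3) beside each group. On the left all 6 libraries given ionomycin lie below ICSI, and on the right ICSI-AOA replicate 5, at 2.46, is the highest of all.

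Mttp was taken for its function, although with earlier results of these data known. Of the 3 genes taken in this way that had 50 or more fragments (Apoa1, Apom and Mttp), Mttp differed most from ICSI. It lies on chromosome 3 (minus strand, 138089854 to 138144968). The fragments were 8, 10 and 11 in ICSI, 2, 1 and 4 in ICSI-AOA, with 6, 6 and 2 in dICSI-AOA. In CPM these were 62.4, 58.0 and 77.6 in ICSI, 13.2, 6.65 and 25.9 in ICSI-AOA, with 38.3, 39.5 and 12.3 in dICSI-AOA. No library given ionomycin reached the lowest ICSI library, in CPM or in FPKM. In ICSI-AOA the log2 fold change was −2.10 (SE 0.63, adjusted p = 0.443 by edgeR). In dICSI-AOA it was −1.17 (SE 0.56, adjusted p = 0.735 by edgeR). The 2 groups given ionomycin differed by 0.93 (SE 0.70, adjusted p = 0.854 by edgeR), so the larger fall in ICSI-AOA was not separated from that in dICSI-AOA.

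Taking both ionomycin groups against ICSI, the log2 fold change of Mttp was −1.63 and met the thresholds (SE 0.50, adjusted p = 0.361 by edgeR), and it was lower in 6 of 6 libraries. An exact two-sided permutation test of its CPM gave p = 0.02381, the smallest that 84 arrangements can give, and for each group alone the exact test gave 0.1, the smallest possible with 3 against 3. Mttp passed the adjusted threshold in no comparison. Its FPKM was 1.86 ± 0.40 in ICSI, 0.514 ± 0.33 in ICSI-AOA and 1.04 ± 0.54 in dICSI-AOA (SD, n = 3), so it passed the filter on a mean FPKM of 1 with the help of the ICSI libraries. For that reason its p-values against ICSI, by edgeR and by permutation, are given as a description and nothing is read from them. Without that filter the values were −2.09 and −1.16 by edgeR, and the second no longer met the thresholds. The dICSI-AOA call rested on replicate 5, with −0.79 without it, and it was also lost without any one of the 3 ICSI libraries. Trmt10a, which overlaps exons of Mttp by 457 bp on the other strand, had 5 fragments over all libraries, and Gm43691 overlaps it by 132 bp.

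Apom, an apolipoprotein of high-density lipoprotein that carries sphingosine 1-phosphate, showed no such difference. It lies on chromosome 17 (minus strand, 35128997 to 35132050). The libraries held 11, 11 and 8 fragments in ICSI, 12, 12 and 12 in ICSI-AOA, with 6, 15 and 7 in dICSI-AOA. The ICSI-AOA level was 78.8 CPM with libraries between 77.6 and 79.8, inside the ICSI range of 56.4 to 85.8, and dICSI-AOA replicate 4 (98.8) was the highest library of all. The log2 fold change against ICSI was 0.15 for ICSI-AOA (SE 0.44, adjusted p = 0.969 by edgeR) and −0.23 for dICSI-AOA (SE 0.45, adjusted p = 0.959). In FPKM the ICSI-AOA libraries (14.1, 9.78 and 11.3) lay above those of ICSI (9.17, 9.44 and 7.32). An SE of this size covers changes in either direction.

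Apoe, the ligand by which remnant particles bind receptors of the LDL receptor family, had 0, 1 and 4 fragments in ICSI, 3, 0 and 1 in ICSI-AOA, with 1, 3 and 1 in dICSI-AOA. Apoh, a phospholipid-binding plasma protein, had 1, 1 and 0 in ICSI, 0 in each ICSI-AOA library and 0, 0 and 1 in dICSI-AOA, and its deposited locus also spans Prkca, whose exons overlap it by 30 bp on the other strand. Apoa2, the second protein of high-density lipoprotein, had 1, 1 and 0 in ICSI and 0 in the other 6 libraries. Apoc1, an inhibitor of lipoprotein uptake and of lipid transfer, was at 0 throughout. A count of 0 allows up to 3 fragments, which is 17.4 to 23.4 CPM in these libraries (counting error only). No fold is given for these genes. Apoa2 and Apoc1 were left out of the tests by the filter, Apoa2 with a mean FPKM of 0.569, and Mttp was the tested gene nearest to the limit.

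**Figure D4:**
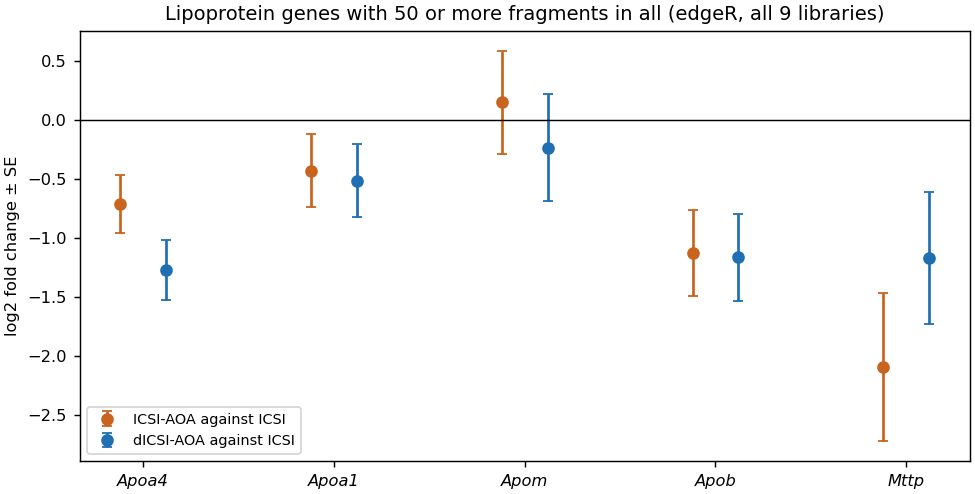
Log2 fold changes against ICSI (vertical axis, edgeR, bars are ± 1 SE) are given for Apoa4, Apoa1, Apom, Apob and Mttp in ICSI-AOA and in dICSI-AOA. Apoa4 and Apob were chosen for values below 0, Mttp lies at −2.10 and −1.17, and the bars of Apom cross 0.

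Apob and Apoa4 are left out of the count of calls against ICSI, since their direction was fixed by the choice. Of the other 6 genes in the fit, Mttp met the thresholds for a lower call in ICSI-AOA, in dICSI-AOA and with both groups pooled, and none met those for a higher call. Mttp entered the fit through its ICSI level, and its call in dICSI-AOA was lost without the filter. Among all 4304 genes, 4.07% were called lower in ICSI-AOA, 3.51% in dICSI-AOA and 4.28% with both groups together. Libraries wholly below ICSI were found in 5.90%, 4.79% and 1.58% of all genes in the same order. The 3 comparisons share the ICSI libraries and so are not independent of each other. Because Mttp passed the filter in this way, nothing is read from its call against these shares.

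The enterocyte and trophectoderm marker lists are described here because genes in them were called, and their sums reached their highest values in ICSI. The 6 enterocyte markers summed to 212 to 335 CPM in ICSI, 180 to 264 in ICSI-AOA and 132 to 147 in dICSI-AOA, so ICSI and ICSI-AOA overlapped. None of the 6 was at 0, and Fabp2 among them is also counted with the assembly genes. Sis, the sucrase-isomaltase of the intestinal brush border, had 15, 11 and 4 fragments in ICSI and 1 to 9 in the libraries given ionomycin. It was called lower in dICSI-AOA (−2.01, SE 0.65, adjusted p = 0.448 by edgeR). In FPKM these groups overlapped, with 1.76, 1.40 and 0.540 in ICSI and 0.158, 0.607 and 2.65 in dICSI-AOA. Replicate 5 of dICSI-AOA was the highest library of all in this unit. Cdx1, an intestinal homeobox gene, was also called lower in dICSI-AOA (−2.13, SE 0.93, adjusted p = 0.674 by edgeR). That call rested on 5, 5 and 3 fragments in ICSI against 2, 0 and 1 in dICSI-AOA, counts near the floor. Of the 5 enterocyte markers tested, 3 had a log2 fold change below 0 in ICSI-AOA, where none was called, and 5 in dICSI-AOA. Vil1 and Alpi stood at 0.36 (SE 0.50) and 0.51 (SE 0.62) in ICSI-AOA, and at −0.36 (SE 0.53) and −0.22 (SE 0.66) in dICSI-AOA. The exons of Vil1 overlap those of Usp37, which had 13216 fragments, by 49 bp on the other strand. The 10 trophectoderm markers summed to 133 to 203 CPM in ICSI, 38.8 to 72.5 in ICSI-AOA and 72.4 to 98.0 in dICSI-AOA. Krt8, a keratin of the trophectoderm, was called lower in both (−2.15, SE 0.62, adjusted p = 0.41, and −1.69, SE 0.59, adjusted p = 0.51, by edgeR). Its exons overlap Gm36026 on the other strand by 101 bp. Elf5, a transcription factor of that lineage, was called lower in ICSI-AOA (−1.52, SE 0.64, adjusted p = 0.599 by edgeR). In dICSI-AOA it stood at −0.59 (SE 0.57) and was not called. It had 2, 24 and 5 fragments in ICSI against 4, 4 and 3 in ICSI-AOA, so ICSI replicate 5 held most of them, and that library also gave the highest trophectoderm sum, 203 CPM. Cdx2, on the same list, had 4, 2 and 2 fragments in ICSI, 2, 1 and 1 in ICSI-AOA, with 2, 2 and 2 in dICSI-AOA. It was below the filter and not tested. The part of cells with these markers in the values of Apoa4 and Mttp was not tested. The 5 sperm markers were at 0 in every library, 3 of 6 cumulus cell markers were at 0 in all, and the mitochondrial share was 6.18% to 9.61% of fragments.

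The assembly and secretion of lipoproteins was followed with 23 further genes, of which 11 were tested. In ICSI-AOA 1 of the 11 was called lower, in dICSI-AOA 1 and with both groups together 2, and none was called higher in any of these. Among all 4304 genes, 4.07%, 3.51% and 4.28% were called lower in the same order. With 11 genes nothing is read from these counts. The median log2 fold change of the 11 was −0.18, −0.71 and −0.26 in the same order, against −0.02, −0.01 and −0.02 over all genes tested. Between the ionomycin groups none was called, with a median of −0.04.

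P4hb, the protein disulfide isomerase that pairs with the product of Mttp, had 6, 9 and 12 fragments in ICSI, 0, 3 and 3 in ICSI-AOA, with 6, 3 and 4 in dICSI-AOA. It was called lower in ICSI-AOA (−2.21, SE 0.69, adjusted p = 0.443 by edgeR) and with both groups together (−1.69, SE 0.54, adjusted p = 0.400 by edgeR). In dICSI-AOA it stood at −1.18 (SE 0.61, adjusted p = 0.748 by edgeR). Fabp1, a fatty acid binding protein of liver and intestine, had 3, 6 and 14 fragments in ICSI, 2, 3 and 4 in ICSI-AOA, with 1, 0 and 4 in dICSI-AOA. It was called lower in dICSI-AOA (−2.27, SE 0.80, adjusted p = 0.527 by edgeR) and with both together (−1.84, SE 0.64, adjusted p = 0.455 by edgeR), although its libraries overlapped. Both genes thus rested on counts as small as those of Mttp.

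Dgat1, which completes the synthesis of triglyceride, had 111 fragments and did not pass the test, with 0.37 (SE 0.44) in ICSI-AOA, and with 0.33 (SE 0.44) for dICSI-AOA. Cideb, a lipid droplet protein that helps load lipid onto particles, had 245 fragments, between 19 and 38 per library. Its exons overlap those of Nop9 on the other strand by 1136 bp, and Nop9 held 16420 fragments. Cideb stood at 0.37 (SE 0.28) and −0.10 (SE 0.29) against ICSI.

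**Figure D5:**
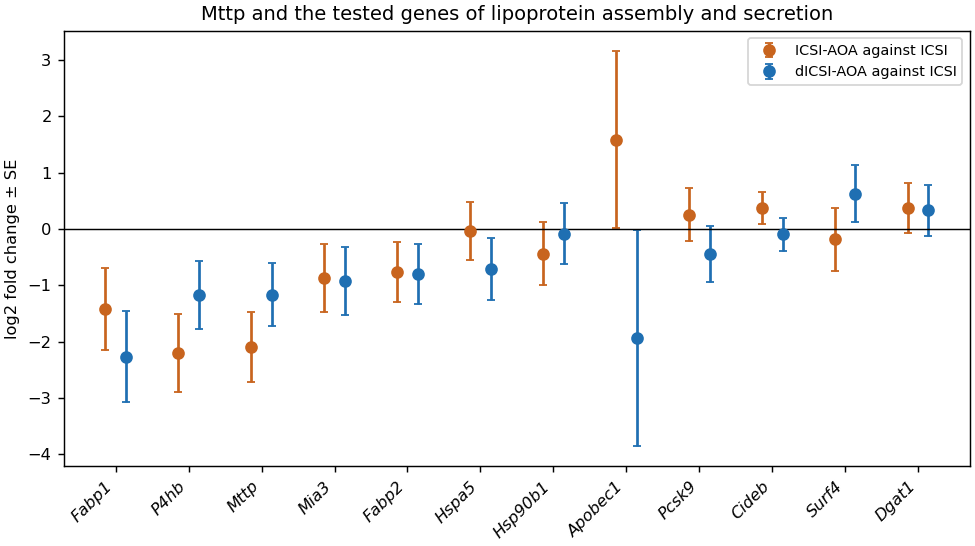
Log2 fold changes against ICSI (vertical axis, edgeR, bars are ± 1 SE) are given for Mttp and the 11 tested genes of lipoprotein assembly and secretion, ordered by their value with both groups together. Fabp1, P4hb and Mttp come lowest in that order. Apobec1, with 5 fragments over all libraries, lies at 1.59 (SE 1.57) in ICSI-AOA and at −1.94 (SE 1.92) in dICSI-AOA, there below P4hb and Mttp. Dgat1 lies at 0.37 in ICSI-AOA and 0.33 in dICSI-AOA (SE 0.44 each). Cideb lies at 0.37 (SE 0.28) and −0.10 (SE 0.29) in the same order.

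Few genes of other lipoprotein functions were called. Of 10 further apolipoprotein genes, 6 were at 0 in every library and 2 were tested. Apobr, a macrophage receptor for particles with apolipoprotein B, was called lower in ICSI-AOA (−2.07, SE 0.98, adjusted p = 0.679 by edgeR). Its FPKM was 3.11, 0.413 and 0.439 in ICSI, 0, 0 and 1.13 in ICSI-AOA, with 0.772, 0.988 and 2.74 in dICSI-AOA. Like Mttp, it passed the filter on a mean FPKM of 1 with the help of the ICSI libraries. This call is therefore given as a description and nothing is read from it. Its fragments were 16, 2 and 2 in ICSI, so ICSI replicate 2 alone held most of them, and 0, 0 and 5 in ICSI-AOA, and its exons overlap Cln3 by 442 bp and Il27 by 103 bp on the other strand. Apof, a regulator of lipid transfer, had 10 fragments and was not tested.

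Of 26 genes for receptors and lipases 4 were tested, and none was called in any comparison. Vldlr, the receptor for very low density lipoprotein, had 366 fragments and stood at 0.16 for ICSI-AOA (SE 0.34) and 0.32 for dICSI-AOA (SE 0.33). Vldlr had more fragments than Apob or Mttp. The receptor genes Lrp2, Lrp8 and Scarb1 and the lipase gene Lpl were at 0 in every library.

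Among 22 regulators 5 were tested. Srebf1, which drives lipid synthesis, had 80 fragments and stood at 0.49 for ICSI-AOA (SE 0.46) and 0.21 for dICSI-AOA (SE 0.47). Its exons overlap Rai1, with 158 fragments, by 109 bp on the other strand.

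The genes whose log2(FPKM + 1) followed Apoa4 most closely over the 9 libraries, among 1188 genes with a mean of at least 20 fragments, were Thumpd3 (Pearson r = 0.899), I830012O16Rik (r = 0.881) and Whsc1l1 (r = 0.874). Thumpd3 had 16, 30 and 49 fragments in ICSI, 24, 25 and 31 in ICSI-AOA, with 19, 23 and 13 in dICSI-AOA. For Apoa1 they were Pank2 (r = 0.815), Qrfp (r = 0.802) and Arid2 (r = 0.802). On the other strand, Pank2 overlaps exons of Rnf24, which had 1609 fragments, by 1125 bp, and Thumpd3 those of Gt(ROSA)26Sor by 145 bp. Apoa4 and Apoa1 were not among each other's closest genes. These correlations are the highest of many and share the libraries, their depth and the scaling of FPKM, and they are given as a description.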

How the data were processed

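RNA was measured in 9 libraries of pooled blastocysts. The authors trimmed reads with cutadapt 1.9.3, aligned them to mm10 with HISAT2 and computed FPKM with Cuffdiff on Ensembl genes. The versions of the last 2 tools are not given in the sources used here, and the paper and the labels name different stranded kits. The deposited estimated counts were read as whole fragments times a factor for each library, which the sources do not state. They were divided by that step and rounded (95.7% to 96.2% of values above 0 lay within 0.01 of whole).

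The 4304 genes whose mean FPKM reached 1 were kept, and their fragments were compared with edgeR 4.0.16 (R 4.3.3, TMM, quasi-likelihood, two-sided, all 9 libraries). Calls used the study's thresholds, a fold over 1.3 and an unadjusted p under 0.05, with Benjamini-Hochberg adjusted p beside them. The edgeR fit was also run on simulated fragments with known fold changes. That run did not cover the recovery of fragments, and its outcome is not given here. Nothing states that the replicates came from separate matings or days, and p-values measure the spread between these libraries. Alternatives were DESeq2 1.42.0, limma 3.58.1 on log2(FPKM + 1) or log2(FPKM + 0.1), no filter, a mean FPKM of 5, total fragments, the authors' factors, a replicate block and each library left out.

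The 10 genes and the lists were chosen with earlier results of these data known. Named are the 10 genes, the called genes and the 2 with most fragments of each list of lipoprotein genes, and the 3 most like Apoa4 and Apoa1. Of the genes this rule names, 2 are not reported here. Markers of other cells are named where called or at 0. Sik3, Apoa5, Apobec1, Vil1, Alpi, Cdx2, Trmt10a, Actb and Gapdh were added after their values were seen. Exons come from GENCODE vM21 and promoters from RefSeq.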

Additional observations from a re-analysis of the deposited data

How the results depend on the processing

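The counts that follow leave out Apob and Apoa4 in comparisons with ICSI. In ICSI-AOA against ICSI, 1 gene of the 10 (Mttp) was called, and 0 with a mean FPKM of at least 5, where Mttp was not tested, and with limma on log2(FPKM + 1) or log2(FPKM + 0.1). In dICSI-AOA against ICSI, the 1 call (Mttp) became 0 with a mean FPKM of at least 5, no filter, DESeq2, the authors' factors, total fragments and both limma fits, and lay between 0 and 1 with single libraries left out. Without dICSI-AOA replicate 5 the 1 call was Apoa1 in place of Mttp. In dICSI-AOA against ICSI-AOA, the 1 call (Apoa4) became 0 with DESeq2, the authors' factors and both limma fits, and lay between 0 and 1 with libraries left out. With both groups against ICSI, the 1 call (Mttp) became 0 with a mean FPKM of at least 5 and both limma fits, and lay between 1 and 2 with libraries left out. Apoa1 joined it without ICSI replicate 2 or dICSI-AOA replicate 5. Apart from genes left untested by the stricter filter, the cause was not tested. No log2 fold change of a called gene reversed.

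All 3 replicate numbers were shared by the ionomycin groups, and number 5 by ICSI as well. Between the ionomycin groups, libraries of the same number had correlations of 0.0350, −0.0340 and 0.0594 after group means were removed, against −0.0781 to 0.0386 for different numbers, and were not treated as pairs. With a replicate block, 1 gene of the 10 (Apoa4) was called and 291 genes in all, against 284. No paired analysis was possible against ICSI because it shares only 1 number with each other group.

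The authors' factors moved the median over all genes tested to 0.25 for ICSI-AOA and 0.36 for dICSI-AOA, and Mttp lay at −0.79 in dICSI-AOA on that scale. Depth limits these values, since Mttp had 50 fragments over 9 libraries.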
